A study of Mus musculus with 47 samples.

Results

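The 6 Cyp4a genes measured here, Cyp4a10, Cyp4a12a, Cyp4a12b, Cyp4a14, Cyp4a31 and Cyp4a32, were taken by symbol from a table of 20320 genes in mouse liver. All 6 were among the 16650 genes that passed the filter on low counts and were tested. The 47 libraries covered wild-type females and males of 3 inbred strains: C57BL/6J, a common laboratory strain, CAST/EiJ, a wild-derived strain, and NZO/HlLtJ, the New Zealand Obese strain. Mice ate either the control diet, labelled 10% fat + fiber, or the high-fat, high-sugar diet, labelled 44% fat + fiber, from week 6 of age, and liver was collected at week 15. There were 4 libraries in each of the 12 combinations of strain, sex and diet, and 3 for CAST/EiJ males on 10% fat. Whether every library is a different mouse is not stated in the labels, and p-values speak only to the variation among these libraries, which may be technical.

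Cyp4a enzymes are cytochromes P450 of the endoplasmic reticulum that add a hydroxyl group to the last (omega) carbon of fatty acids. Alcohol and aldehyde dehydrogenases then turn the product into a dicarboxylic acid, which peroxisomes shorten. Cyp4a10 and Cyp4a14 are textbook targets of PPAR-alpha, the nuclear receptor that senses fatty acids, and rise in fasted liver. Cyp4a12a and Cyp4a12b are known as the male-predominant members, and the Cyp4a12a enzyme also hydroxylates arachidonic acid. Cyp4a31 and Cyp4a32 are close relatives of Cyp4a10 whose own substrates are less well described.

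The genes stand side by side on chromosome 4 of GRCm38, within 322.557 kb and among protein-coding models and pseudogenes of the Cyp4 family in GENCODE M21. Cyp4a12a (ENSMUSG00000066071) lies at chr4:115299046-115332815 and Cyp4a12b (ENSMUSG00000078597) at chr4:115411624-115439034, both on the plus strand. Cyp4a14 (ENSMUSG00000028715) lies at chr4:115486200-115496142 on the minus strand. Cyp4a10 (ENSMUSG00000066072), Cyp4a31 (ENSMUSG00000028712) and Cyp4a32 (ENSMUSG00000063929) follow on the plus strand, at chr4:115518264-115533649, chr4:115563649-115579015 and chr4:115600969-115621602. The gene models have 12 exons, or 13 for Cyp4a10, and coding lengths of 1521 to 1527 bases.

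The coding sequences fall into 3 kinds, which a 90-base exonic stretch around the cysteine that holds the haem iron shows. Capitals mark bases that differ from Cyp4a10, and positions count from the start codon of the GENCODE M21 coding sequence (Cyp4a10 bases 1315 to 1404, Cyp4a14 1309 to 1398, Cyp4a12a and Cyp4a12b 1312 to 1401).
Cyp4a10, Cyp4a31 and Cyp4a32: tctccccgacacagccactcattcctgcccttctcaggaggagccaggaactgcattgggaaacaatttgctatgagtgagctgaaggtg
Cyp4a14: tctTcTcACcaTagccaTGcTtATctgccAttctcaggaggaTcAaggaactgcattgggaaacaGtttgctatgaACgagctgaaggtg
Cyp4a12a and Cyp4a12b: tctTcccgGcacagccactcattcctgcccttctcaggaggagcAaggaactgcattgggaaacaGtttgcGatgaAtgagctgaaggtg
In this stretch Cyp4a10, Cyp4a31 and Cyp4a32 were identical, Cyp4a14 differed from them at 16 bases, and the Cyp4a12 pair, identical to each other, at 6.

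Over the whole coding sequence Cyp4a12a and Cyp4a12b were 98.49% identical, with 23 differing bases and a longest identical run of 342 bases. The 100 coding bases in which they differ most (bases 664 to 763) are shown because only such places let a read be assigned to one gene of the pair. Capitals mark the 8 differing bases.
Cyp4a12a: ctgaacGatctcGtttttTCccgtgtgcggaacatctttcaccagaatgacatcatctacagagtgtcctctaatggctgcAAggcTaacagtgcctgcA
Cyp4a12b: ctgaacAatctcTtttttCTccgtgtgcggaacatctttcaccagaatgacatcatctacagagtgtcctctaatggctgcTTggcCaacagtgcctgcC
Of the 100-base windows of the transcript, 35.8% for Cyp4a12a and 36.2% for Cyp4a12b also occurred in another Cyp4a transcript. Values of either gene alone are therefore uncertain, and their sum was also tested and is given in most comparisons.

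Cyp4a10 was 96.59% identical to Cyp4a31 and 97.18% to Cyp4a32, and these 3 are shown where they differ most (bases 162 to 261). Capitals mark the 13 positions at which the 3 are not all alike.
Cyp4a10: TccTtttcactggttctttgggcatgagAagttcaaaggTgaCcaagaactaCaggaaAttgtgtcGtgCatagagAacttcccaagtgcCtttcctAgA
Cyp4a31: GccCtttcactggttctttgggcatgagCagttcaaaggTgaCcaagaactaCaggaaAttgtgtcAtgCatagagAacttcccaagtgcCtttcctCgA
Cyp4a32: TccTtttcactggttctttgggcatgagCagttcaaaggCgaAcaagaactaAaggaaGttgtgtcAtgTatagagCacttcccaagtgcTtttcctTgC
Shared 100-base windows made up 12.7% of Cyp4a10, 8.2% of Cyp4a31 and 20.1% of Cyp4a32. Cyp4a14 shared none, and was 76.04% to 77.61% identical to the others.

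Library totals ran from 21609240 to 47780231 estimated counts, the shallowest being replicate 1 of the NZO/HlLtJ males on 44% fat. Xist and the Y-linked Uty matched the labelled sex in all 47 libraries. In 5 libraries the pancreatic acinar gene Cpa1 reached 20 CPM (counts scaled by library size) or more: 2 of C57BL/6J females on 44% fat, 2 of C57BL/6J males on 10% fat and 1 of CAST/EiJ females on 44% fat. The defining hepatocyte gene Alb stood at 27700 to 109500 CPM. In whole liver, fewer cells of a type and less RNA per cell cannot be told apart.

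**Figure D1:**
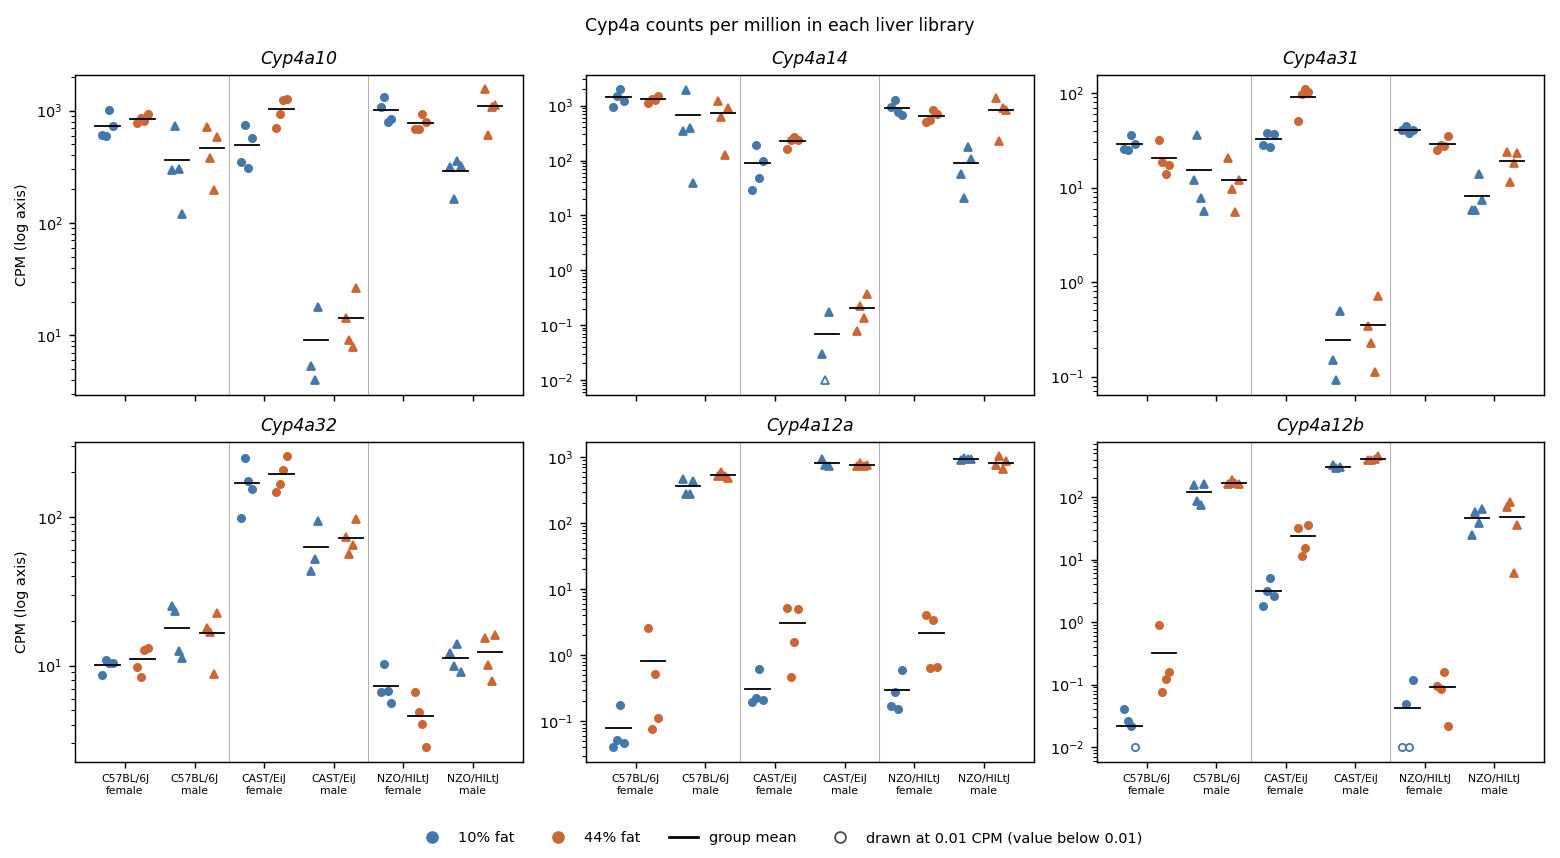
Level of each Cyp4a gene in each of the 47 libraries, in CPM on a log axis, by strain, sex and diet. Circles are females, triangles males, blue 10% fat and orange 44% fat; short lines are group means and open symbols are values below 0.01, drawn at that level. Cyp4a12a and Cyp4a12b sit low in females, and Cyp4a10, Cyp4a14 and Cyp4a31 sit low in CAST/EiJ males.

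Which Cyp4a gene had the highest level differed among groups. Per kilobase of transcript, Cyp4a14 had the highest level in C57BL/6J females, at 568.9 CPM per kb on 10% fat and 519.8 on 44% fat, followed by Cyp4a10 at 349.7 and 399.4. By group mean it was also the highest in C57BL/6J males, at 273.2 and 289.3 CPM per kb, ahead of Cyp4a10 at 171.3 and 222.1 and Cyp4a12a at 150.3 and 218.8, but these males varied widely. Replicate 2 raised the Cyp4a14 mean on 10% fat, at 1956 CPM against 38.5 to 388 CPM in the other libraries of that group. Median levels there were 366 CPM for Cyp4a14, 358 for Cyp4a12a and 297 for Cyp4a10, so the lead on 10% fat is not secure. Nor did it hold in every library on 44% fat, where replicate 3 had 127 CPM of Cyp4a14 and 524 CPM of Cyp4a12a. NZO/HlLtJ females were led by Cyp4a10, at 476.4 and 368.6 CPM per kb, with Cyp4a14 next at 368.6 and 259.3. In CAST/EiJ females Cyp4a10 led, at 234.7 and 493.1 CPM per kb, with Cyp4a32 next at 110.4 and 126.9. CAST/EiJ males were led by Cyp4a12a, at 335.1 and 311.8 CPM per kb. In NZO/HlLtJ males the order of the group means changed with diet. Cyp4a12a led on 10% fat, at 385.9 against 137.6 for Cyp4a10, while on 44% fat Cyp4a10 stood at 517.7, Cyp4a12a at 341.1 and Cyp4a14 at 330.6. Replicate 2 on 44% fat still had Cyp4a12a ahead, at 1035 CPM against 611 CPM for Cyp4a10. The Cyp4a32 model holds almost no untranslated sequence, so its level per kb is not on quite the same footing as the others. With the CPM of the whole gene divided by the kb of coding sequence alone, CAST/EiJ females on 44% fat had 148.9 for Cyp4a14 and 127.2 for Cyp4a32. On 10% fat Cyp4a32 stayed ahead, at 110.7 against 60.06. By that measure second place also went to Cyp4a12a in C57BL/6J males and to Cyp4a14 in NZO/HlLtJ males on 44% fat. Any counts from untranslated sequence stay in that measure. The models hold 975 untranslated bases for Cyp4a14, 898 for Cyp4a12a, 582 for Cyp4a10 and 3 for Cyp4a32. The part of untranslated length in these orders was not tested.

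Males carried far more of the Cyp4a12 pair than females. In the comparison of males with females within a strain, the quasi-likelihood F test of edgeR, adjusted over all genes by Benjamini-Hochberg, called 5 of the 6 genes in C57BL/6J (16.8% of all genes tested), 6 in CAST/EiJ (30.3%) and 5 in NZO/HlLtJ (17.2%). Cyp4a12a and Cyp4a12b were higher in males of all 3 strains.

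Cyp4a12a in the 8 C57BL/6J males had a lowest, median and highest value of 277, 471 and 599 CPM, against 0.0404, 0.0938 and 2.60 CPM in the 8 females. In the 7 CAST/EiJ males the same 3 values were 722, 755 and 954 CPM, against 0.193, 0.541 and 5.15 CPM in the 8 females. NZO/HlLtJ males had 650, 920 and 1035 CPM, and females 0.152, 0.618 and 3.99 CPM. The sexes were far apart in each strain, with no overlap. On the log2 scale the male-minus-female difference of Cyp4a12a was 10.71 (SE 0.56, adjusted p = 4.57e-17) in C57BL/6J, 9.65 (SE 0.52, adjusted p = 5.46e-17) in CAST/EiJ and 10.05 (SE 0.52, adjusted p = 4.76e-17) in NZO/HlLtJ. Whether this difference varied among strains was tested directly, and it did not pass (strain-by-sex adjusted p = 0.624).

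Cyp4a12b, its near-copy, differed between the sexes by unequal amounts. The difference was 10.61 (SE 0.55, adjusted p = 3.37e-17) in C57BL/6J and 9.46 (SE 0.55, adjusted p = 1.14e-15) in NZO/HlLtJ, but 5.35 (SE 0.38, adjusted p = 7.70e-14) in CAST/EiJ. The strain-by-sex test of Cyp4a12b passed (adjusted p = 9.66e-07). CAST/EiJ females set this gene apart: they had 1.80 to 36.1 CPM, whereas C57BL/6J females had at most 0.914 and NZO/HlLtJ females at most 0.159 CPM. In 3 of those 16 C57BL/6J and NZO/HlLtJ female libraries Cyp4a12b was at 0 CPM to the precision given, and 3 counts, the limit a count of 0 allows, would be at most 0.0863 CPM in the shallowest of the 16. Such limits cover counting error only.

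The sum of the pair, which does not depend on how reads were divided between them, gave the same picture. Males had 592 ± 154 CPM (SD, n = 8) in C57BL/6J, 1145 ± 89.5 (SD, n = 7) in CAST/EiJ and 928 ± 141 (SD, n = 8) in NZO/HlLtJ. Female means were 0.623 ± 1.18, 15.1 ± 15.7 and 1.31 ± 1.58 CPM (SD, n = 8 each). The male-minus-female difference of the sum was 10.71, 6.89 and 10.01 on the log2 scale in the same order, and it differed among strains (strain-by-sex adjusted p = 1.10e-05).

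**Figure D2:**
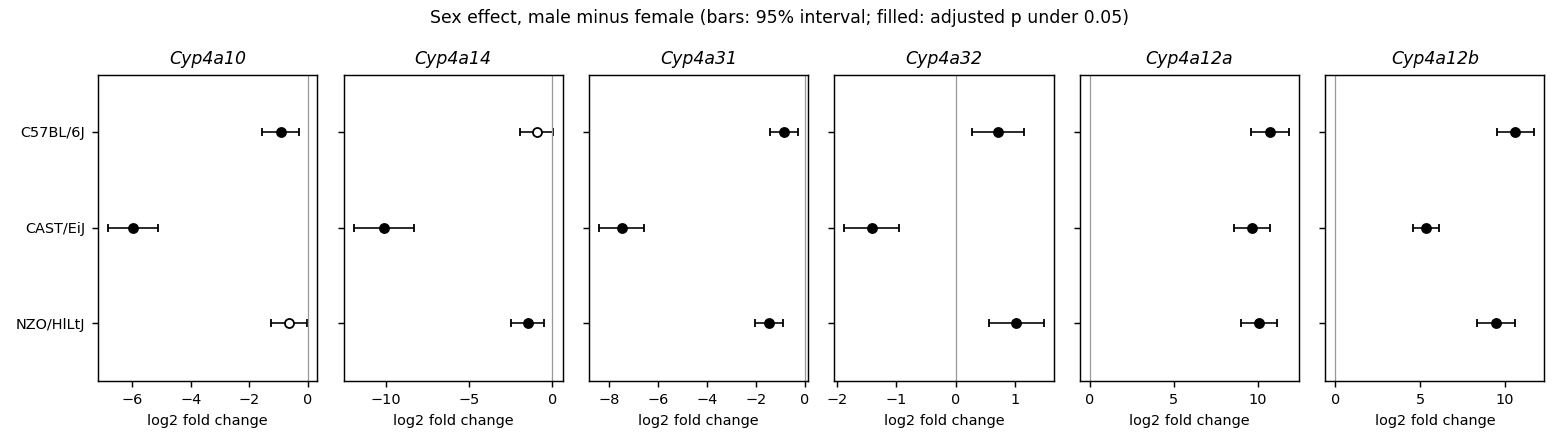
Male-minus-female difference of each Cyp4a gene in each strain, as log2 fold change with its 95% interval, averaged over both diets; filled points passed an adjusted p of 0.05. The Cyp4a12 genes lie far to the male side, and Cyp4a10, Cyp4a14 and Cyp4a31 in CAST/EiJ far to the female side.

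Cyp4a10, Cyp4a14 and Cyp4a31 went the other way, with values lower in males by very different amounts, and had their lowest levels in CAST/EiJ males. Cyp4a10 stood at 5.31, 4.01 and 17.8 CPM in the 3 CAST/EiJ males on 10% fat and at 14.4, 9.02, 7.82 and 26.5 CPM in the 4 on 44% fat. CAST/EiJ females ranged from 307 to 1273 CPM, so that every female lay above every male. The difference was -5.97 on the log2 scale (SE 0.42, adjusted p = 6.72e-14), a level 62.6-fold lower in males.

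Cyp4a14, a PPAR-alpha target like Cyp4a10, gave 39 counts in all 7 CAST/EiJ male libraries together. Its levels there were 0.0297, 0 and 0.173 CPM on 10% fat and 0.0796, 0.224, 0.135 and 0.367 CPM on 44% fat. The 8 CAST/EiJ females had 28.7 to 270 CPM, again without overlap. The fitted difference was -10.16 (SE 0.89, adjusted p = 2.15e-11), and with so few counts in males its size is loosely set, with a 95% interval from -11.97 to -8.35.

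Cyp4a31 behaved in the same direction in CAST/EiJ, at 0.0919 to 0.709 CPM in males and 27.1 to 110 CPM in females (difference -7.47, SE 0.46, adjusted p = 1.50e-15). Cyp4a32 stood at 43.4 to 96.2 CPM in the 7 males and 98.6 to 256 CPM in the 8 females. The difference was -1.42 (SE 0.23, adjusted p = 5.71e-06), a level 2.67-fold lower in males.

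In C57BL/6J and NZO/HlLtJ the same genes differed less between the sexes, and Cyp4a32 was higher in males. Cyp4a10 was lower in C57BL/6J males (-0.94, SE 0.31, adjusted p = 0.0327), and in NZO/HlLtJ its difference of -0.65 (95% interval -1.28 to -0.02) did not pass (adjusted p = 0.149). Cyp4a14 was lower in NZO/HlLtJ males (-1.49, SE 0.49, adjusted p = 0.0286) and had a difference of -0.95 in C57BL/6J that did not pass (95% interval -1.92 to 0.02, adjusted p = 0.184). Cyp4a31 was lower in males of both strains, with log2 differences of -0.85 in C57BL/6J (adjusted p = 0.0344) and -1.46 in NZO/HlLtJ (adjusted p = 0.000317). Cyp4a32 was 1.64-fold higher in C57BL/6J males (adjusted p = 0.0202) and 2.03-fold higher in NZO/HlLtJ males (adjusted p = 0.00111).

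The C57BL/6J calls rested on few libraries. Without replicate 2 of the males on 10% fat, a library with Cpa1 of at least 20 CPM whose Cyp4a14 was 1956 CPM against 38.5 to 388 CPM in the other 3, Cyp4a14 passed in C57BL/6J (adjusted p = 0.00935). Cyp4a10 was lost in 7 of the 16 fits that left out 1 C57BL/6J library (adjusted p up to 0.0752), Cyp4a31 in 9 (up to 0.0959) and Cyp4a32 in 2. Once the 5 libraries with acinar signal were left out, Cyp4a32 was not called (adjusted p = 0.153). The NZO/HlLtJ call of Cyp4a14 was lost in 4 of 16 such fits (adjusted p up to 0.0609). No CAST/EiJ call between the sexes was lost in the 15 fits without 1 CAST/EiJ library.

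The strain-by-sex test passed for 5 of the 6 genes, against 13.6% of all genes. Besides Cyp4a12b these were Cyp4a10 (adjusted p = 2.25e-10), Cyp4a14 (1.85e-08), Cyp4a31 (1.56e-11) and Cyp4a32 (4.83e-07). The sum of Cyp4a10, Cyp4a31 and Cyp4a32, which is not open to a division of reads among those 3, also passed (adjusted p = 6.92e-07): its difference was -0.90 in C57BL/6J, -3.59 in CAST/EiJ and -0.65 in NZO/HlLtJ.

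The titles carry identifiers that form 3 consecutive runs of 16, 16 and 15 libraries. Within the runs, the CAST/EiJ sex difference of Cyp4a10 was -5.82, -7.26 and -5.07 in log2 CPM and that of Cyp4a14 was -9.38, -11 and -8.71. The C57BL/6J difference of Cyp4a10 was -0.58, -0.62 and -1.70. Directions were thus the same in each run. The 4 macrophage markers were also lower in males, with 3 of 4 called in C57BL/6J and 4 of 4 in CAST/EiJ and NZO/HlLtJ, and in CAST/EiJ their summed level was 53.0 to 87.1 CPM in males and 78.9 to 134 CPM in females. The summed level of 7 hepatocyte genes was 47300 to 73540 CPM in CAST/EiJ males and 83190 to 120600 CPM in CAST/EiJ females. The part of these markers in the Cyp4a differences was not tested.

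Strains were compared within each sex. Among males, all 6 genes differed between CAST/EiJ and C57BL/6J, 3 higher and 3 lower, where 57.6% of all genes were called. Cyp4a14 was lower in CAST/EiJ males, with a log2 difference of -12.45 (SE 0.94, adjusted p = 7.37e-14), as were Cyp4a10 (-5.16, SE 0.40, adjusted p = 1.38e-13) and Cyp4a31 (-5.47, SE 0.44, adjusted p = 3.55e-13). Cyp4a32 was 3.93-fold higher (adjusted p = 1.43e-09), Cyp4a12b 2.48-fold higher (adjusted p = 0.000666) and Cyp4a12a 1.78-fold higher (adjusted p = 0.0432, lost in 12 of 15 fits that left out 1 library). The sum of Cyp4a10, Cyp4a31 and Cyp4a32 differed by -2.48 (adjusted p = 4.33e-09). That of the Cyp4a12 pair was 1.96-fold higher (adjusted p = 0.0148). The build named for these counts is that of C57BL/6J, and how reads of the other strains were assigned is not given in the sources used here.

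Among females, 5 of 6 genes differed between CAST/EiJ and C57BL/6J (58.3% of all genes). Cyp4a32 stood at 98.6, 170 and 256 CPM (lowest, median and highest) in CAST/EiJ females and at 8.43, 10.3 and 13.1 CPM in C57BL/6J females. That is a 17.2-fold higher level, with no overlap (log2 difference 4.10, SE 0.24, adjusted p = 2.56e-17). The sum of Cyp4a10, Cyp4a31 and Cyp4a32, most of it Cyp4a10, differed by 0.22 (95% interval -0.31 to 0.75, adjusted p = 0.486). The size for Cyp4a32 alone may depend on how reads were divided among these genes, which was not tested. Cyp4a12b was higher by 6.57 (SE 0.56, adjusted p = 1.84e-12), and the sum of the Cyp4a12 pair by 4.79 (SE 0.48, adjusted p = 7.73e-11). Cyp4a14 had a difference of -3.24 (SE 0.52, adjusted p = 1.70e-06). Cyp4a10 showed a difference of -0.14 with a 95% interval from -0.76 to 0.49 (adjusted p = 0.727). Cell-type markers moved with these comparisons: all 4 macrophage markers were lower in CAST/EiJ than in C57BL/6J, in males (median log2 difference -1.29, summed level 53.0 to 87.1 against 103.9 to 168.0 CPM) and in females (-1.15, 78.9 to 133.9 against 143.2 to 194.7 CPM). Of 4 lymphocyte markers, 4 were lower in CAST/EiJ males and 3 in females. Of 7 hepatocyte genes, 1 was higher and 3 lower in males, and 2 were higher and 2 lower in females. Their part in the Cyp4a differences was not tested. A score of clock genes (Dbp and Ciart against Arntl and Npas2) ran from 0.13 to 2.89 in CAST/EiJ females and from -2.56 to -0.11 in C57BL/6J females. In males it overlapped, at -0.30 to 2.55 and -2.56 to 3.04. Of 16 clock genes 12 were called in females and 8 in males, where 58.3% and 57.6% of all genes were. The part of clock state in these strain differences was not tested.

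NZO/HlLtJ against C57BL/6J called 2 of 6 genes in females and 4 in males, where 35.2% of all genes were called in either sex. Cyp4a12b, at 47.4 ± 25.5 CPM in NZO/HlLtJ males and 145 ± 40.5 in C57BL/6J males (SD, n = 8 each), gave a log2 difference of -1.59 (SE 0.32, adjusted p = 0.000107). Cyp4a12a was 2.00-fold higher in NZO/HlLtJ males (adjusted p = 0.0215), and the sum of the pair did not differ past the threshold (log2 difference 0.67, adjusted p = 0.113). Cyp4a14 and Cyp4a32 had log2 differences of -1.36 and -0.55 (adjusted p = 0.0265 and 0.0455), and both calls were lost when single libraries were left out, in 5 and 10 of 16 fits. In females Cyp4a32 was 1.82-fold lower in NZO/HlLtJ (adjusted p = 0.00241) and Cyp4a12a 3.15-fold higher, at levels under 4 CPM (adjusted p = 0.0427, lost in 10 of 16 fits that left out 1 library). The sum of the pair in females differed by 1.37 and did not pass (adjusted p = 0.0613). Nor did the sum of Cyp4a10, Cyp4a31 and Cyp4a32 in females (0.17, adjusted p = 0.667) or males (0.41, adjusted p = 0.232).

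NZO/HlLtJ against CAST/EiJ called 4 of 6 genes in females (60.3% of all genes) and 5 in males (55.6%). In females, Cyp4a32 and Cyp4a12b were lower in NZO/HlLtJ, with log2 differences of -4.97 and -7.01, and Cyp4a14 was 5.36-fold higher. The sum of Cyp4a10, Cyp4a31 and Cyp4a32 differed by -0.06 (adjusted p = 0.868), and that of the Cyp4a12 pair by -3.42 (adjusted p = 8.00e-09). Cyp4a31 gave -0.65 (adjusted p = 0.0403), a call lost in 11 of 16 fits that left out 1 library. In males, Cyp4a14 was higher in NZO/HlLtJ by 11.09 and Cyp4a10 by 5.62, and Cyp4a12a differed by 0.17 with an interval from -0.56 to 0.89. The sum of Cyp4a10, Cyp4a31 and Cyp4a32 was higher by 2.89 (adjusted p = 2.13e-10), and that of the Cyp4a12 pair differed by -0.30 (adjusted p = 0.470). Comparisons that share a strain share its libraries.

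**Figure D3:**
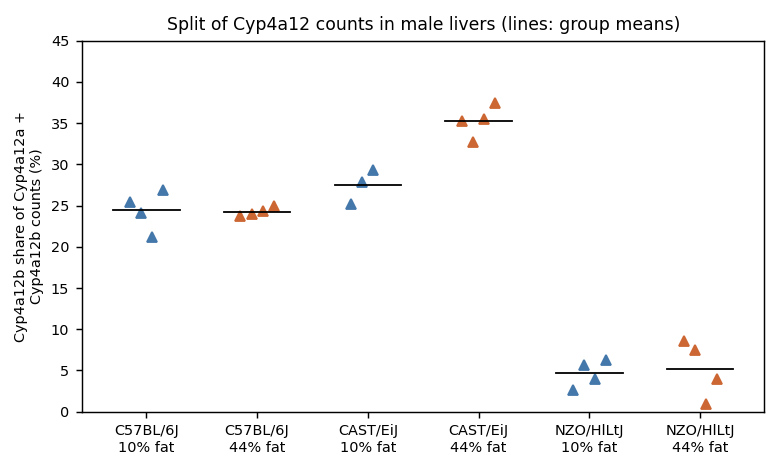
Share of Cyp4a12b in the estimated counts of Cyp4a12a plus Cyp4a12b, in percent, in each male library by strain and diet. Shares were 21.2% to 26.9% in C57BL/6J, 25.2% to 37.5% in CAST/EiJ and 0.943% to 8.52% in NZO/HlLtJ.

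The division of the Cyp4a12 counts between the near-copies differed between strains. Cyp4a12b took 24.3 ± 1.6% (SD, n = 8) of the counts of the pair in C57BL/6J males, 31.9 ± 4.6% (n = 7) in CAST/EiJ males and 4.9 ± 2.5% (n = 8) in NZO/HlLtJ males. NZO/HlLtJ males did not overlap with the other strains. In CAST/EiJ females the share was 90.8 ± 3.2% (SD, n = 8), so the pair was mostly Cyp4a12b in females and mostly Cyp4a12a in males of that strain. Among CAST/EiJ males the 3 on 10% fat had 25.2% to 29.4% and the 4 on 44% fat 32.8% to 37.5%, without overlap. These shares depend on how the authors' counting assigned reads that fit both genes.

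The diet comparison asked how 44% fat against 10% fat changed these genes. Over both sexes it called 0 of 6 genes in C57BL/6J (0.991% of all genes tested), 1, Cyp4a12b, in CAST/EiJ (0.895%) and 0 in NZO/HlLtJ (5.64%). At an unadjusted p under 0.05, 2 genes passed in C57BL/6J and 3 in NZO/HlLtJ. DESeq2 called 2 and 1 genes there, and limma 0 in both. The sum of the Cyp4a12 pair passed in C57BL/6J (log2 difference 1.99, SE 0.49, adjusted p = 0.0368) and in CAST/EiJ (1.51, SE 0.36, adjusted p = 0.0334), but not in NZO/HlLtJ (1.26, SE 0.40, adjusted p = 0.0583). Both calls were lost when single libraries were left out, in 10 of 16 fits (up to 0.291) and 9 of 15 (up to 0.0982), and the C57BL/6J call also without the 5 acinar libraries. Sex by sex, 2 of 6 genes rose in NZO/HlLtJ males (2.68% of all genes called in either direction) and 2 in CAST/EiJ females (0.198%, with 0.114% of all genes higher). None was called in C57BL/6J females (0.102%), C57BL/6J males (0.042%), CAST/EiJ males (0.012%) or NZO/HlLtJ females (0.486%), where 2, 0, 0 and 2 genes had an unadjusted p under 0.05. DESeq2 called 2, 0, 0 and 1 genes in these 4 comparisons, and limma 0 in each.

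**Figure D4:**
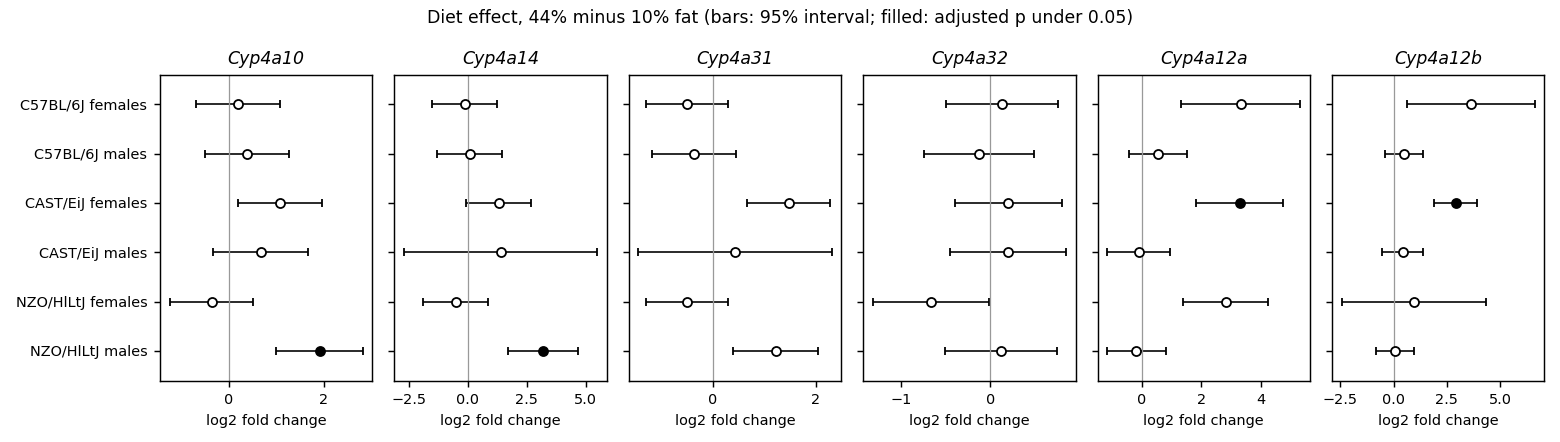
Difference of 44% fat minus 10% fat for each Cyp4a gene in the 6 combinations of strain and sex, as log2 fold change with its 95% interval; filled points passed an adjusted p of 0.05. Filled points are Cyp4a10 and Cyp4a14 in NZO/HlLtJ males and Cyp4a12a and Cyp4a12b in CAST/EiJ females.

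In NZO/HlLtJ males the PPAR-alpha targets Cyp4a10 and Cyp4a14 rose. Cyp4a10 stood at 316, 165, 360 and 321 CPM in the 4 males on 10% fat and at 1555, 611, 1069 and 1131 CPM in the 4 on 44% fat. Every library on 44% fat was above every library on 10% fat. The rise was 3.76-fold (log2 difference 1.91, SE 0.45, adjusted p = 0.0140).

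Cyp4a14 stood at 57.2, 20.3, 179 and 109 CPM on 10% fat and at 1357, 227, 897 and 820 CPM on 44% fat in the same males. The groups again did not overlap, although replicate 2 was the lowest of its group on either diet, and replicate numbers pair nothing. The rise was 9.05-fold (log2 difference 3.18, SE 0.73, adjusted p = 0.0120). Cyp4a10 lost its call without replicate 2 on 10% fat or replicate 1 on 44% fat (adjusted p up to 0.0912), and Cyp4a14 without replicate 1 or 2 on 10% fat (up to 0.0728).

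Neither near relative of Cyp4a10 passed in these males. Cyp4a31 stood at 5.76, 5.85, 13.7 and 7.43 CPM on 10% fat and 23.5, 11.5, 18.2 and 23.2 CPM on 44% fat, a difference of 1.22 (SE 0.41) that did not pass (adjusted p = 0.107). Cyp4a32, at 9.01 to 13.9 and 7.92 to 15.9 CPM, differed by 0.12 with an interval from -0.51 to 0.75. Summed, Cyp4a10, Cyp4a31 and Cyp4a32 rose by 1.86 (SE 0.38, adjusted p = 0.00516), most of that sum being Cyp4a10. Over the 6 genes the median log2 difference was 0.67, and over all genes -0.000652.

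The Cyp4a12 pair, which made up most Cyp4a expression in NZO/HlLtJ males on 10% fat, showed no such difference. Cyp4a12a stood at 897, 954, 945 and 942 CPM on 10% fat and 748, 1035, 650 and 871 CPM on 44% fat (difference -0.18, 95% interval -1.16 to 0.80, adjusted p = 0.915). With the other genes higher, the 6 genes together reached 589.9 CPM per kb on 10% fat and 1225 on 44% fat. In NZO/HlLtJ females the same sum was 866.2 and 643.3 CPM per kb.

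NZO/HlLtJ females gave no rise in Cyp4a10 or Cyp4a14. Cyp4a10 stood at 1075, 1313, 793 and 838 CPM on 10% fat and 693, 690, 936 and 790 CPM on 44% fat (difference -0.37, 95% interval -1.25 to 0.51, adjusted p = 0.847). Cyp4a14 differed by -0.51 (95% interval -1.87 to 0.86). The joint sex-by-diet test over the 3 strains did not pass for either gene (adjusted p = 0.685 and 0.682). Unadjusted p-values of that F test were 0.00772 for Cyp4a10 and 0.00706 for Cyp4a14. In it, 5 of the Cyp4a genes had an unadjusted p under 0.05, as did 934 of all 16650 genes. The sexes were not compared within NZO/HlLtJ alone. The Cyp4a10 level of males on 44% fat, 611 to 1555 CPM, overlapped that of the females on either diet.

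In NZO/HlLtJ, females on 10% fat and males on 44% fat have no library from the third identifier run, and females on 44% fat and males on 10% fat none from the second. Within the first run, with 2 males on each diet, the differences were 2.10 for Cyp4a10 and 4.02 for Cyp4a14 in log2 CPM. In the same males, the summed hepatocyte genes ran from 88170 to 107800 CPM on 10% fat and from 64510 to 82840 CPM on 44% fat, with 2 of 7 lower past the threshold. The score of clock genes ran from -2.41 to 1.38 and from -0.47 to 2.20. With the clock score as a covariate both genes kept their calls.

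Other genes of the pathway were counted in NZO/HlLtJ males from lists of genes. Of 36 listed PPAR-alpha targets 35 were tested, and 11 rose and 0 fell, against 1.56% and 1.12% of all genes. They had a median log2 difference of 0.50. Aldh3a2, which oxidizes fatty aldehydes and so takes up the omega-oxidation product, rose by 1.36 (SE 0.25, adjusted p = 0.00108). Acadm, an acyl-CoA dehydrogenase of mitochondrial beta-oxidation, rose by 0.61 (adjusted p = 0.00426), Cpt2, of the carnitine shuttle, by 0.53 (adjusted p = 0.00522) and Retsat, retinol saturase, by 0.97 (adjusted p = 0.00617). The receptor gene Ppara itself differed by 0.21 and was not called.

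Downstream enzymes, electron donors and receptors were counted against the same shares of all genes, 1.56% higher and 1.12% lower. Of 30 genes for steps after omega-hydroxylation, 6 rose and 0 fell, among them Aldh3a2, the peroxisomal Hsd17b4 (0.41, adjusted p = 0.00933), Acot8 (0.52, adjusted p = 0.0189) and Acaa1a (0.53, adjusted p = 0.0203). Of the 4 genes that pass electrons to P450 enzymes 1 rose: Por, the P450 reductase, by 1.30 (SE 0.29, adjusted p = 0.00982). Among 9 other Cyp4 genes tested 0 were called by edgeR, with 3 at an unadjusted p under 0.05. Of 12 PPAR receptors and partners 1 was called, Ppard, which fell by 1.43 (adjusted p = 0.0259).

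Genes that differ between the sexes in liver were also counted there, where 1.56% of all genes rose and 1.12% fell. Of 24 female-biased genes 3 rose in NZO/HlLtJ males on 44% fat: Hao2, a peroxisomal hydroxy acid oxidase (3.57, adjusted p = 0.000335), Sult1e1, the oestrogen sulfotransferase (2.96, adjusted p = 0.00277), and Cyp2b9 (2.62, adjusted p = 0.0278). Of 23 male-biased genes 2 fell, Keg1 (-0.83, adjusted p = 0.0179) and Cspg5 (-1.73, adjusted p = 0.0281). The male-predominant Cyp4a12 pair was not in that list. Of 22 regulators of sex-biased expression 1 rose, Trim24 (0.87, adjusted p = 0.0125), and 2 fell, Foxa2 (-1.02, adjusted p = 0.00982) and Cish (-3.46, adjusted p = 0.0189).

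In CAST/EiJ females the pair that rose was a different one. Cyp4a12b stood at 1.80, 3.15, 5.07 and 2.58 CPM on 10% fat and at 32.2, 11.3, 15.5 and 36.1 CPM on 44% fat, without overlap. The rise was 7.53-fold (log2 difference 2.91, SE 0.50, adjusted p = 0.00430). It was called in each of the 8 fits without 1 of these libraries (adjusted p up to 0.0385).

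Cyp4a12a in the same females was at 0.193, 0.223, 0.615 and 0.208 CPM on 10% fat and 5.15, 0.467, 1.56 and 4.95 CPM on 44% fat. Replicate 2 on 44% fat lay below replicate 3 on 10% fat, so the groups overlapped. The rise was 9.76-fold (log2 difference 3.29, SE 0.72, adjusted p = 0.0354), and the call was lost in 5 of the 8 fits without 1 library (adjusted p up to 0.197). The sum of the pair rose by 2.95 (SE 0.52, adjusted p = 0.00585), a call lost without replicate 4 on 10% fat (adjusted p = 0.0555). Even so the highest female, at 41.0 CPM for the sum, stayed below the lowest CAST/EiJ male, at 1023 CPM.

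Within the 3 identifier runs the CAST/EiJ female difference was 4.12, 2.05 and 3.30 for Cyp4a12b and 4.42, 1.74 and 3.59 for Cyp4a12a in log2 CPM, from 1 or 2 libraries a group. The Y-linked Uty was at most 0.0400 CPM in all 24 female libraries and at least 9.46 CPM in males. One CAST/EiJ female on 44% fat, replicate 2, carried the acinar signal, and it had the lowest Cyp4a12a and Cyp4a12b of its group.

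In the females of the other strains the Cyp4a12 pair was at lower levels, and neither gene passed for diet. In NZO/HlLtJ females Cyp4a12a stood at 0.171, 0.273, 0.152 and 0.603 CPM on 10% fat and 3.99, 0.633, 3.43 and 0.664 CPM on 44% fat, without overlap (difference 2.82, SE 0.70), which did not pass (adjusted p = 0.0552). Cyp4a12b there differed by 0.94 (95% interval -2.44 to 4.33, adjusted p = 0.915). The sum of the pair passed (2.68, SE 0.66, adjusted p = 0.0482), though in 6 of the 8 fits without 1 library it did not (up to 0.147). In C57BL/6J females Cyp4a12a was at 0.0404, 0.0523, 0.176 and 0.0473 CPM on 10% fat, which is 2 to 7.71 counts, and at 2.60, 0.0751, 0.522 and 0.113 CPM on 44% fat. That difference of 3.32 did not pass (adjusted p = 0.157), nor did that of Cyp4a12b (3.63, adjusted p = 0.369) or of the sum (3.44, adjusted p = 0.0920, called without replicate 2 or 4 on 44% fat and by DESeq2), and the highest library, replicate 1 on 44% fat, was one with acinar signal.

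In males the pair did not move with diet past the threshold in any strain. Differences of Cyp4a12a were 0.54 (95% interval -0.44 to 1.53) in C57BL/6J and -0.10 (95% interval -1.16 to 0.95) in CAST/EiJ. Some male values separated by diet all the same. In C57BL/6J males Cyp4a12a stood at 277 to 462 CPM on 10% fat and 480 to 599 on 44% fat. The sum of the pair there stood at 354 to 620 and 640 to 788 CPM. Cyp4a12b in CAST/EiJ males stood at 293 to 321 and 393 to 453 CPM (difference 0.43, 95% interval -0.52 to 1.39). The other male values of the pair overlapped between diets. The joint sex-by-diet test called Cyp4a12a (adjusted p = 0.0377) and the sum of the pair (adjusted p = 0.0203), 1 of the 6 genes against 0.108% of all genes. The call of Cyp4a12a was lost in 31 of 47 fits without 1 library (adjusted p up to 0.0841), and that of the sum without replicate 1 of the C57BL/6J females on 10% fat (adjusted p = 0.0580). Neither passed with the identifier run or the clock score as a covariate.

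The rest of the Cyp4a genes in CAST/EiJ females had higher values on 44% fat without passing. Cyp4a31 stood at 28.1, 37.8, 27.1 and 36.4 CPM on 10% fat and 50.6, 97.1, 110 and 102 CPM on 44% fat, without overlap (difference 1.47, SE 0.40, adjusted p = 0.130). Cyp4a10 differed by 1.07 (adjusted p = 0.424), Cyp4a14 by 1.31 (adjusted p = 0.595) and Cyp4a32 by 0.20 (adjusted p = 0.919). Of the lists, 1 of 35 PPAR-alpha targets rose, Fabp2, an intestinal-type fatty acid binding protein (0.81, adjusted p = 0.0354), and 1 of 24 female-biased genes fell, Hao2 (-3.25, adjusted p = 0.00585). Of 23 male-biased genes 0 were called there by edgeR, with 3 at an unadjusted p under 0.05. Of the 35 PPAR-alpha targets 12 had an unadjusted p under 0.05 there, as did 1490 of all 16650 genes. In CAST/EiJ males 0 of the 35 were called and 14 had such a p, as did 1219 of all genes. Over both sexes 1 of the 35 rose in C57BL/6J, 6 in CAST/EiJ and 9 in NZO/HlLtJ, and 0 fell. Of all genes 0.991%, 0.895% and 5.64% were called in those 3 comparisons, in either direction.

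C57BL/6J males varied widely on either diet. Cyp4a14 stood at 344, 1956, 388 and 38.5 CPM on 10% fat and 1238, 618, 127 and 906 CPM on 44% fat. The groups overlapped over almost their whole range, and the difference of 0.08 had a 95% interval from -1.28 to 1.45. In C57BL/6J females it differed by -0.13 (95% interval -1.49 to 1.23).

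The joint strain-by-diet test called 0 of 6 genes with edgeR (0.048% of all genes), with 1 gene at an unadjusted p under 0.05, and 0 with DESeq2 or limma. Adjusted p-values ran from 0.433 for Cyp4a31 to 0.931 for Cyp4a12a. The rise in NZO/HlLtJ males is therefore not shown to differ from that in the other strains when both sexes are averaged, and the strains were not tested against each other within males.

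The pathway lists also set CAST/EiJ males beside their low Cyp4a10 and Cyp4a14. In the comparison of CAST/EiJ males with females, 16 of 35 PPAR-alpha targets were lower and 2 higher in males, where 14.2% and 16.1% of all genes were lower and higher. Lower genes included Aldh3a2 (-1.44, adjusted p = 7.96e-08), Acot1, an acyl-CoA thioesterase (-3.84, adjusted p = 1.03e-07), Acadm (-0.66, adjusted p = 3.53e-07) and Vnn1, the pantetheinase vanin (-2.51, adjusted p = 9.44e-07). In C57BL/6J 3 of 35 were lower and 2 higher (8.7% and 8.1% of all genes), and in NZO/HlLtJ 4 and 0 (9.31% and 7.94%). Of the 30 downstream genes, 14 were lower and 4 higher in CAST/EiJ males. The higher ones included Scp2 (1.51), Acox3 (1.43) and Nudt7 (3.95), all of peroxisomes. Ppara differed by -0.30 and was not called.

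Against C57BL/6J males, CAST/EiJ males had 22 of 35 PPAR-alpha targets lower and 1 higher, where 29.7% and 28% of all genes were lower and higher. The lower ones with the smallest p were Vnn1 (-6.10, adjusted p = 3.50e-16), Aldh3a2 (-2.47, adjusted p = 5.11e-14), Ech1, a peroxisomal and mitochondrial isomerase (-1.20, adjusted p = 3.83e-12), and Acaa1b, a peroxisomal thiolase (-2.13, adjusted p = 9.23e-11). Of the 30 downstream genes 19 were lower and 4 higher. Among 9 other Cyp4 genes 5 were lower and 3 higher.

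Within groups, libraries high in Cyp4a10 tended to be high in Cyp4a14, Cyp4a31 and Cyp4a32. As a description over 47 libraries, after the mean of each group was taken off, log2 CPM of Cyp4a10 correlated with that of Cyp4a14 (r = 0.881), Cyp4a31 (r = 0.868) and Cyp4a32 (r = 0.658). The Cyp4a12 genes correlated with each other (r = 0.666) and not with Cyp4a10 (r = -0.111 for Cyp4a12a). Points share libraries and scaling. Cyp4a10, Cyp4a31 and Cyp4a32 share 100-base windows, and so do Cyp4a12a and Cyp4a12b (35.8% and 36.2% of their windows).

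Genes most like each Cyp4a gene were ranked by Pearson correlation of log2 CPM over the 47 libraries, among 10642 genes. Strain and sex dominate this measure, and within-group values follow in brackets. For Cyp4a10 they were Maob (r = 0.944, within groups 0.597), Acadl (0.938, within groups 0.865) and Cbr1 (0.934, within groups 0.570). For Cyp4a14 they were Slc16a7 (0.955, within groups 0.615), Mmd (0.939, within groups 0.496) and Acadl (0.938, within groups 0.840). Acadl, the long-chain acyl-CoA dehydrogenase, was thus near both, also within groups.

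For Cyp4a31 the nearest were Cbr1 (0.940), Maob (0.918) and Acot3 (0.915). Cyp4a32 had another set, Cyp3a25 (0.946), Hrg (0.934) and Rpl5 (0.931), with within-group values of 0.377, 0.281 and 0.175. The sum of the Cyp4a12 pair was nearest to Ttc39c (0.948), the Y-linked Uty (0.931) and the complement gene C8a (0.929), of which C8a alone kept a within-group value above 0.5 (0.607).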

How the data were processed

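PolyA RNA of 47 liver libraries was sequenced as read pairs, per the labels' protocols. The authors deposited estimated counts per gene (expected counts, 20.3% of values not whole within 1e-06) and variance-stabilized values on a log2 scale, with GRCm38 and DESeq2 named in the submitters' processing notes; the aligner, the counter, the use of strand and the treatment of strain differences are each not given in the sources used here. Counts were rounded and tested with edgeR 4.0.16 (filterByExpr, TMM, 12 group means, robust quasi-likelihood F test, 35 residual degrees of freedom, R 4.3.3) over 16650 genes, with Benjamini-Hochberg adjustment and a threshold of 0.05. SE is the log2 difference divided by the root of F. CPM are TMM-scaled; log2 CPM use a prior count of 2. Sums of like genes were tested in a second fit. Scripts were tested on simulated data. Named genes were the 6 Cyp4a genes, both sums, up to 4 called genes of smallest p per list and comparison described, and the 3 most similar genes; members and lists were chosen with earlier results of these data known. Alternatives were DESeq2 1.42.0, limma 3.58.1 on the deposited log2 values, RLE scaling, other filters, covariates and left-out libraries. Replicate pairs differed beyond sampling noise (chi-square per gene at least 21.86). Sequences and models come from GENCODE M21. Markers of kidney tubule were not analysed here.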

Additional observations from a re-analysis of the deposited data

Results flagged for a closer look

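Within groups of 4 libraries, 88 combinations of a gene or sum with a group were searched for 1 library standing far from the rest of its group, and 5 had one, where chance gives about 1 in 20. Cyp4a12a in replicate 3 of the C57BL/6J females on 10% fat was at 0.176 CPM, against 0.0404 to 0.0523 CPM in the other 3. In replicate 3 of the CAST/EiJ females on 10% fat it was at 0.615 CPM, against 0.193 to 0.223 CPM. Replicate 1 of the C57BL/6J females on 44% fat, a library with acinar signal, had 3.51 CPM of the Cyp4a12 pair, against at most 0.646 CPM in the others, and 0.914 CPM of Cyp4a12b, against 0.0751 to 0.158 CPM. Cyp4a12b in replicate 4 of the CAST/EiJ males on 44% fat was at 453 CPM, against 393 to 401 CPM. These libraries stayed in every value of the report unless it says otherwise.

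The sex difference varied among the 3 strains, by a test of that variation, for Cyp4a10 (adjusted p = 2.25e-10), Cyp4a14 (1.85e-08), Cyp4a31 (1.56e-11), Cyp4a32 (4.83e-07), Cyp4a12b (9.66e-07), the Cyp4a12 pair summed (1.10e-05) and the sum of Cyp4a10, Cyp4a31 and Cyp4a32 (6.92e-07), all with edgeR. Cyp4a32 is the member whose direction turned: it was higher in males of C57BL/6J and NZO/HlLtJ and lower in males of CAST/EiJ. By the joint test, the log2 diet difference varied with sex for Cyp4a12a (adjusted p = 0.0377) and for the Cyp4a12 pair summed (adjusted p = 0.0203). Both calls could be lost by leaving out a single library, and neither held with the identifier run or the clock score as a covariate.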

How the results depend on the processing

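No called difference changed direction under any alternative run. Of the called genes' values, 112 from fits without 1 library no longer passed and 872 did, and 23 and 431 under other settings; for the sums these were 27 and 324, and 11 and 125. In each case the cause was not tested. Numbers of the 6 genes called moved as follows. With DESeq2, diet called 2 in C57BL/6J, 2 in CAST/EiJ, 1 in NZO/HlLtJ, 2 in C57BL/6J females and 1 in NZO/HlLtJ females. Once the 5 libraries with acinar signal were left out, diet called 2 in CAST/EiJ, 1 in NZO/HlLtJ and 1 in NZO/HlLtJ females, and NZO/HlLtJ against C57BL/6J called 2 in males. With each strain fitted alone, diet called 1 in NZO/HlLtJ and 1 in CAST/EiJ females, and sex called 3 in C57BL/6J. The stricter filter gave 1 for diet in NZO/HlLtJ females. NZO/HlLtJ against C57BL/6J in females fell to 1 without a filter, with the identifier run as a covariate and with limma, and in males to 2 with limma. Sex by diet fell to 0 with the run, the clock score or limma. Without 1 library the number called ran from 0 to 1 for diet in C57BL/6J, 0 to 2 in CAST/EiJ, 0 to 1 in NZO/HlLtJ, 1 to 2 in CAST/EiJ females and 0 to 2 in NZO/HlLtJ males. For sex it ran from 2 to 6 in C57BL/6J and 4 to 5 in NZO/HlLtJ. For NZO/HlLtJ against C57BL/6J it ran from 1 to 2 in females and 2 to 4 in males, and for sex by diet from 0 to 1. RLE scaling in edgeR moved no count by more than 1.5 times. Joint tests were not run with each strain fitted alone, counts were not recomputed with like genes summed, and limma was not run on the sums. No paired analysis was possible because replicate numbers were given in accession order and tie no libraries together. Female Cyp4a12 levels rest on few counts, so their fold changes are imprecise.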
